A study of Mus musculus with 6 samples.

Results

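The Pdlim, Ldb3 and Fhl genes encode LIM-domain scaffold proteins of the actin cytoskeleton and of the muscle Z-disc. The 10 genes described here were chosen by symbol (Pdlim1, Pdlim2, Pdlim3, Pdlim4, Pdlim5, Pdlim7, Ldb3, Fhl1, Fhl2 and Fhl3), out of 22272 distinct symbols in the deposited table. All 10 passed the filter on low counts and belong to the 12166 genes tested. RNA came from undifferentiated C2C12 cells, a mouse myoblast line, at day 0 of differentiation: 3 libraries from cells overexpressing ChREBP-beta and 3 from cells with GFP, whose genotype is given as WT. ChREBP-beta is the short, active isoform of the glucose-responsive transcription factor encoded by Mlxipl, and GFP is a fluorescent protein used as a control. No source used here gives the vector, its promoter or whether the cells are 1 clone or a pool. Nor do the labels tell whether each library had its own culture, and p-values therefore rest on a spread between libraries that may be technical.

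A LIM domain is a zinc-binding fold that docks other proteins. Pdlim and Ldb3 proteins join an N-terminal PDZ domain, which in several of them binds alpha-actinin, to C-terminal LIM domains: Pdlim1 to Pdlim4 form the ALP group with a single LIM domain, and Pdlim5, Pdlim7 and Ldb3 the Enigma group with several. Fhl proteins consist of little but LIM domains and act both at focal adhesions and sarcomeres and as cofactors of transcription factors. In muscle the ALP protein Pdlim3, Ldb3 (also called ZASP or Cypher) and Pdlim5 (ENH) are Z-disc proteins, and mutations of LDB3 and FHL1 cause muscle disease in humans.

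The libraries held 17600238 to 19163834 counts, and Mlxipl stood at 219 ± 3.85 CPM with ChREBP-beta and 0.599 ± 0.111 CPM with GFP (SD, n = 3; CPM is the gene's count scaled to library size with TMM factors). Transcripts of other tissues were found in most libraries. Hepatocyte markers summed to 14.7 to 20.0 CPM with ChREBP-beta, against 0.209, 0.0553 and 23.5 CPM in GFP replicates 1 to 3, and lung epithelial markers to 67.9 to 89.4 CPM with ChREBP-beta, against 0.523, 133 and 93.0 CPM in the GFP replicates. Endothelial (3.24 to 7.34 CPM with ChREBP-beta, 0.732 to 5.29 CPM with GFP), macrophage (15.4 to 17.6 CPM with ChREBP-beta, 5.34 to 17.4 CPM with GFP) and red blood cell markers (5.49 to 9.79 CPM with ChREBP-beta, 3.35 to 11 CPM with GFP) were low, and none of these 5 lists held a called gene. GFP replicate 1 gave the low end of these endothelial, macrophage and red blood cell ranges. In GFP replicate 2 the sums were 4.98, 14.3 and 8.46 CPM. Of the 7 tested fibroblast and fibro-adipogenic markers 4 were higher and 3 lower (876 to 901 CPM with ChREBP-beta, 835 to 867 CPM with GFP), and of the 5 tested smooth muscle and pericyte markers 2 were higher and 3 lower (1426 to 1477 CPM with ChREBP-beta, 1559 to 1612 CPM with GFP). Most of the smooth muscle and pericyte sum was Acta2, at 1195 CPM with ChREBP-beta and 1263 CPM with GFP. The 3 lower markers were Acta2, Cnn1 and Des, and Des is also among the myoblast markers. The 2 higher ones were Mcam and Cspg4, the latter at 162 CPM with ChREBP-beta and 88.5 CPM with GFP. The untested markers Myh11 and Rgs5 reached at most 0.609 and 0.724 CPM in any library. A further fit set GFP replicate 3 against the ChREBP-beta libraries, the 4 libraries with over 1 CPM of the liver gene Alb. All 10 genes described here kept their direction in it. The log2 fold change was -6.53 for Pdlim3, -2.37 for Fhl1, 0.85 for Fhl2, 0.40 for Pdlim7, -0.10 for Pdlim2 and -0.16 for Fhl3. In that fit the lone GFP library is assumed to vary like the others.

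With ChREBP-beta, 8 of the 10 genes were lower and 2, Fhl2 and Pdlim7, were higher. Pdlim3 all but disappeared, Fhl1 fell 4.93-fold, and Pdlim5, Ldb3, Pdlim4 and Pdlim1 fell 1.42-fold to 1.75-fold. Fhl2 rose 1.82-fold and Pdlim7 1.32-fold. Pdlim2 and Fhl3 differed by 1.08-fold and 1.11-fold. These counts stand beside a broad background: edgeR's quasi-likelihood test with Benjamini-Hochberg adjustment called 58.7% of all tested genes, 29.3% lower and 29.5% higher. The groups did not overlap for any of the 10 genes, and for 63.2% of all tested genes. At least 2-fold falls were called for Pdlim3 and Fhl1, against 7.42% of tested genes, and at least 2-fold rises for none of the 10, against 4.06%. The median log2 fold change of the 10 genes was -0.60, beside a median of all tested genes of -0.00. All 8 markers of myoblasts, the labelled cell type, were present with GFP and lower with ChREBP-beta, with a summed level of 230 to 238 CPM in the ChREBP-beta libraries and 604 to 641 CPM in the GFP libraries. Their part in the falls of Pdlim3, Fhl1, Ldb3 and Pdlim5 was not tested, and in bulk RNA fewer cells of a type and less RNA per cell cannot be told apart.

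**Figure D1:**
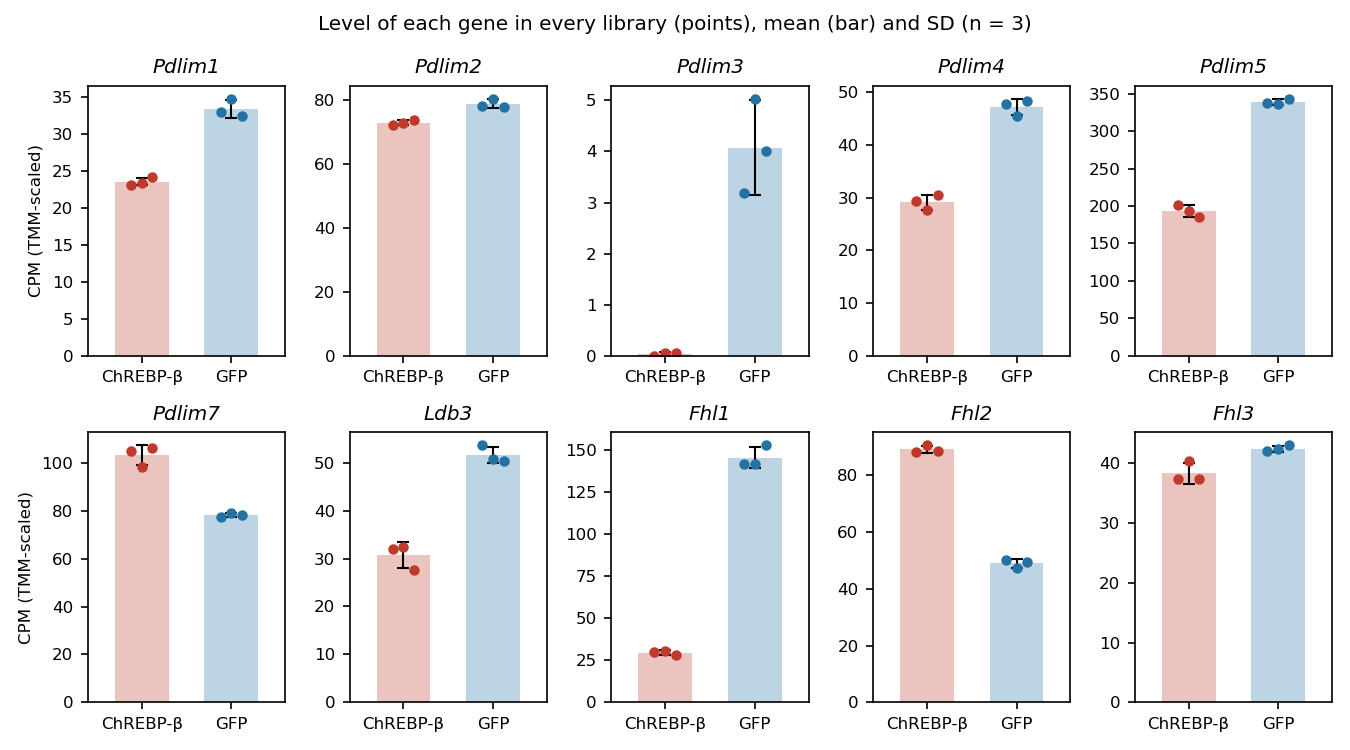
Level of each gene in TMM-scaled CPM on a linear axis from 0, a panel a gene; points are libraries, bars the group mean and error bars the SD (n = 3). ChREBP-beta libraries lie below all GFP libraries in 8 panels and above them for Fhl2 and Pdlim7, with the narrowest gaps, relative to the level, for Pdlim2 and Fhl3.

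The stretches of DNA around the annotated starts were read from RefSeq (GRCm38.p6; 250 bases before to 50 bases after a start), which gave 13 windows for 9 of the 10 genes. They were searched on both strands for the CArG box, the binding sequence of Srf (serum response factor, the regulator of actin genes), for the MEF2 site, for CATTCC (the binding sequence of TEAD factors), for the E-boxes CANNTG and CACGTG, for TATAAA and for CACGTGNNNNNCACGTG, the perfect form of the carbohydrate response element that ChREBP binds. CACGTG is a case of CANNTG, and the MEF2 site can overlap TATAAA. The windows that held a CArG box are shown for the Fhl1, Fhl2 and Ldb3 genes, together with that of Pdlim3, the gene with the largest fall of the 10. The CArG box, or in Pdlim3 CATTCC on either strand, is in capitals.
Fhl1, chrX:56779433-56779732, plus strand: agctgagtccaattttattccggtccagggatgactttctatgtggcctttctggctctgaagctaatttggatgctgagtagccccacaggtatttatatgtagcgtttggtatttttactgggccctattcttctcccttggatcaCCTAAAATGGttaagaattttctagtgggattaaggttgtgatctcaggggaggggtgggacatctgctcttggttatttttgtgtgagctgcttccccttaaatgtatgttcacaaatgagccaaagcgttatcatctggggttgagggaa
Fhl2 upstream start, chr1:43196712-43197011, minus strand: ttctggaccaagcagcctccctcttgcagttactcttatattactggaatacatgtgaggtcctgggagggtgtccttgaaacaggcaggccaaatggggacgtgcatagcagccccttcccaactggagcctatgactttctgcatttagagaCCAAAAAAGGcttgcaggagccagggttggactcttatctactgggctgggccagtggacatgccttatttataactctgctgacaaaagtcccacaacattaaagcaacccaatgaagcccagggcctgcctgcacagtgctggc
Fhl2 downstream start, chr1:43163912-43164211, minus strand: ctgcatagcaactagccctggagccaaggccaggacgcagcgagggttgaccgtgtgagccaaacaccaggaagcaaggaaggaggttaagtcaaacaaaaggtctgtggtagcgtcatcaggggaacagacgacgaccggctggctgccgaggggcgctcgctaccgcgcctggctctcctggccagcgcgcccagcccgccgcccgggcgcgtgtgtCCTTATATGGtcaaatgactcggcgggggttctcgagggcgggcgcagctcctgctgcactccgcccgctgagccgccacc
Ldb3, chr14:34588632-34588931, minus strand: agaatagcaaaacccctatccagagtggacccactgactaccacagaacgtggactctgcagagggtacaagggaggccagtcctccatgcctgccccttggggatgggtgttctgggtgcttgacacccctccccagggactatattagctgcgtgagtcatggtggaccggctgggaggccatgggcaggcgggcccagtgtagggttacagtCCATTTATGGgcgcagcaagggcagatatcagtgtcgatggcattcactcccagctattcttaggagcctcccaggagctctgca
Pdlim3, chr8:45885237-45885536, plus strand: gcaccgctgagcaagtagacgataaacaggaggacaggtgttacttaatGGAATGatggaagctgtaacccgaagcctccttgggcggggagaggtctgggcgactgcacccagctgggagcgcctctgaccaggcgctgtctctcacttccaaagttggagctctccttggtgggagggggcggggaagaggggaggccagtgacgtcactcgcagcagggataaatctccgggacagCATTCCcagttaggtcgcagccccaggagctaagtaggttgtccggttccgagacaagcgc

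A CArG box was present in 5 of the 13 windows, those of 3 genes, and in 1.63% of all 32851 promoter windows of this length. It began 102 bases before the Fhl1 start, 96 and 31 bases before the Fhl2 starts, and 35 bases before the Ldb3 start shown. The other Ldb3 window overlaps the one printed and holds the same box. Fhl1 and Ldb3 fell and Fhl2 rose, so genes with this sequence moved in both directions. The upstream Fhl2 window also held a MEF2 site that overlaps TATAAA, beside 3.19% of all windows with a MEF2 site and 13.6% with TATAAA. The other 2 windows with TATAAA were of Fhl1 and Pdlim5. CATTCC stood in the Pdlim3 window only, at 201 and 11 bases before the start, and in 14.7% of all windows. CANNTG was found in windows of Fhl1, Fhl2, Pdlim3 and Pdlim5, 6 of 13, and in 72.3% of all windows. CACGTG was in none of the 13 windows and in 7.15% of all, and the perfect carbohydrate response element in none of the 32851. A match is only a match of letters in these windows.

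Among the Fhl genes, Fhl1 fell and Fhl2 rose. Fhl1 (ENSMUSG00000023092.16; chromosome X, 56731787 to 56793346, plus strand, GRCm38) encodes the Fhl protein most abundant in skeletal muscle. Replicates 1 to 3 with ChREBP-beta held 30.2, 30.5 and 28.1 CPM, against 142, 142 and 153 CPM in replicates 1 to 3 with GFP. Every ChREBP-beta library was far below every GFP library, and the libraries of each group lay close together. The log2 fold change was -2.30 (SE 0.048; edgeR adjusted p = 1.64e-22), and 1.97% of tested genes had a lower one. The window printed for Fhl1 is 1 of the 2 that were read, other annotated starts of the gene had no window, and counts per gene do not separate the starts.

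Fhl2 (ENSMUSG00000008136.14; chromosome 1, 43123074 to 43196984, minus strand, GRCm38) encodes a cofactor of beta-catenin and Srf that is abundant in the heart. It was read at 88.0, 90.4 and 88.5 CPM in the 3 ChREBP-beta libraries, against 50, 47.2 and 49.5 CPM in the 3 GFP libraries. The groups were well apart, with a log2 fold change of 0.86 (SE 0.045; edgeR adjusted p = 2.25e-14). A higher log2 fold change was found for 5.05% of tested genes. A processed pseudogene, Gm8210, lies within the Fhl2 locus on the opposite strand; an snRNA gene lies within Fhl1 and a microRNA gene within Pdlim7, on the same strand. The counts of all 10 genes were whole numbers in every library, so none showed a sign of reads split between genes. Fhl3 (ENSMUSG00000032643.12; chromosome 4, 124700701 to 124708611, plus strand, GRCm38), which in mouse myoblasts binds MyoD and restrains its activity, stood at 37.3, 40.4 and 37.3 CPM with ChREBP-beta and at 42.0, 42.4 and 43.0 CPM with GFP. ChREBP-beta replicate 2 came nearest to the GFP libraries. The log2 fold change was -0.15 (SE 0.057; edgeR adjusted p = 0.0326), and the call was lost in 7 of 16 alternatives, among them DESeq2 (adjusted p = 0.0692) and the fits without ChREBP-beta replicate 1 (0.121), ChREBP-beta replicate 3 (0.107), GFP replicate 2 (0.0784) or GFP replicate 3 (0.0959).

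The make-up of the Fhl family differed accordingly. Levels of different genes were compared as TMM-scaled CPM per kb of merged exons (RPKM; exon lengths from GENCODE M21). Fhl2 made up 60.5%, 59.7% and 61.0% of the family's summed RPKM in the ChREBP-beta libraries, against 29.4%, 28.1% and 28.1% in the GFP libraries. Fhl1 made up 10.3% ± 0.351 with ChREBP-beta and 43.5% ± 0.854 with GFP (SD, n = 3). Fhl3 held 29.3% ± 0.631 of the family with ChREBP-beta and 27.9% ± 0.512 with GFP (SD, n = 3). The RPKM ratio of Fhl2 to Fhl1 was 5.70, 5.81 and 6.16 with ChREBP-beta, against 0.688, 0.649 and 0.632 with GFP, a change of 8.98-fold. Each of these differences had a two-sided exact permutation p = 0.1, the smallest that 3 against 3 libraries allow. The ratio was chosen after the values were seen. Summed over the 3 Fhl genes, the level was 157 ± 3.89 CPM with ChREBP-beta and 237 ± 7.38 CPM with GFP (SD, n = 3, log2 difference -0.60, exact permutation p = 0.1). This sum is not per kb, so Fhl1, with 3.71 kb of merged exons, weighs more in it than Fhl2 (1.90 kb) or Fhl3 (1.68 kb). Mean RPKM with ChREBP-beta and with GFP was 7.97 and 39.3 for Fhl1, 46.9 and 25.8 for Fhl2, and 22.8 and 25.2 for Fhl3. The summed RPKM was not compared between the groups.

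**Figure D2:**
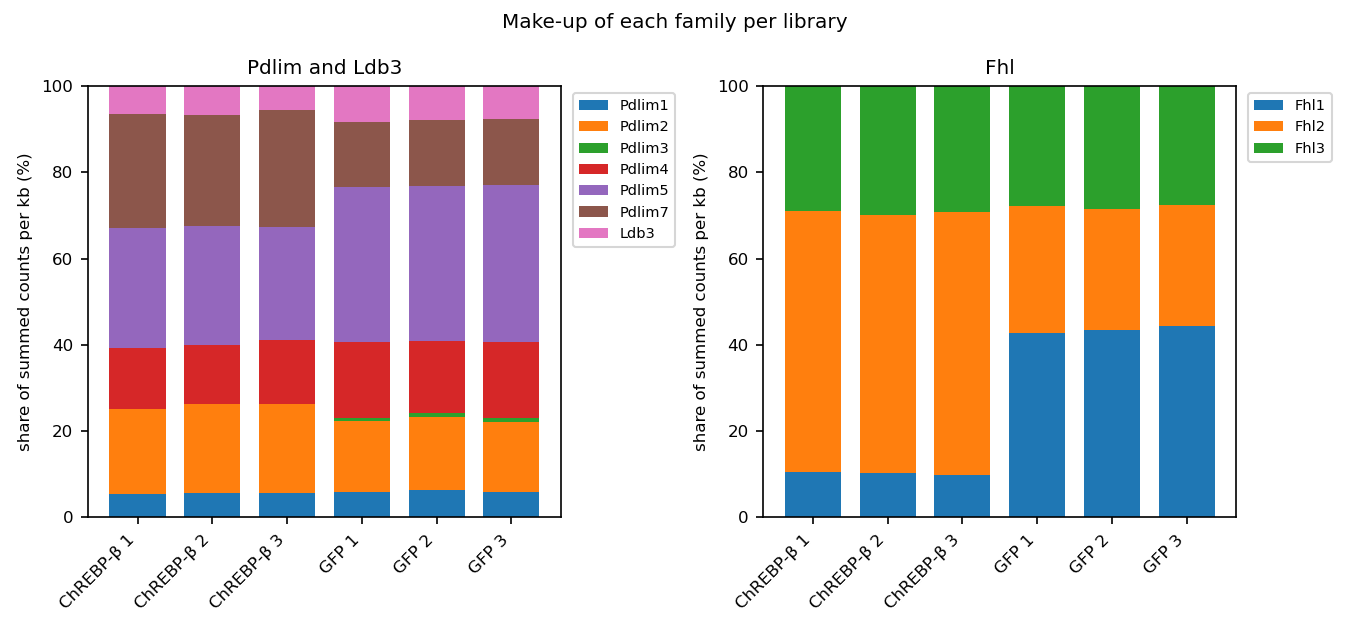
Share of each gene in the summed counts per kb of its family, in percent, for each library (bars; ChREBP-beta libraries left of GFP libraries). Fhl2 takes 60.4% of the Fhl family on average with ChREBP-beta and 28.5% with GFP, and Pdlim7 takes 26.5% of the Pdlim and Ldb3 family with ChREBP-beta and 15.2% with GFP.

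In the Enigma group, Pdlim5 and Ldb3 fell and Pdlim7 rose. Pdlim5 (ENSMUSG00000028273.15; chromosome 3, 142239590 to 142395696, minus strand, GRCm38) encodes ENH, which tethers protein kinase C to alpha-actinin and the Z-disc. It had the most counts of the 10 genes, at 201, 193 and 186 CPM with ChREBP-beta against 337, 336 and 343 CPM with GFP. All 3 ChREBP-beta libraries lay well below the GFP libraries, and the log2 fold change was -0.81 (SE 0.032; edgeR adjusted p = 8.22e-17). Ldb3 (ENSMUSG00000021798.14; chromosome 14, 34526603 to 34588682, minus strand, GRCm38) encodes the Z-disc protein that binds alpha-actinin 2 in striated muscle. Its level was 32.0, 32.5 and 27.6 CPM with ChREBP-beta, against 53.6, 50.8 and 50.4 CPM with GFP. ChREBP-beta replicate 3 was the lowest, and the groups did not overlap (log2 fold change -0.75, SE 0.063; edgeR adjusted p = 2.94e-10).

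Pdlim7 (ENSMUSG00000021493.15; chromosome 13, 55495795 to 55513676, minus strand, GRCm38) encodes Enigma, a protein that binds tropomyosin on actin filaments and is also known for its part in bone formation. It rose to 105, 98.4 and 106 CPM with ChREBP-beta, against 77.2, 78.9 and 78.0 CPM with GFP. The log2 fold change was 0.40 (SE 0.040; edgeR adjusted p = 6.47e-09), and 13.1% of tested genes had a higher one. The RPKM ratio of Pdlim7 to Pdlim5, chosen after the values were seen, was 0.957, 0.935 and 1.04 with ChREBP-beta against 0.419, 0.431 and 0.416 with GFP (exact permutation p = 0.1, the smallest possible). The ratio of Pdlim5 to Ldb3 was also chosen after the values were seen, as that of a pair with like falls. It was 4.34 ± 0.278 with ChREBP-beta and 4.52 ± 0.179 with GFP (SD, n = 3; exact permutation p = 0.4), and its group ranges overlapped. Because the pair was picked for its like falls, a small difference was set by the choice, and no conclusion is drawn from this p-value.

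In the ALP group all 4 genes were lower, by very different amounts. Pdlim3 (ENSMUSG00000031636.7; chromosome 8, 45885461 to 45919548, plus strand, GRCm38) encodes ALP itself, the alpha-actinin-associated protein of the Z-disc in skeletal muscle. It had 0, 1 and 1 counts in ChREBP-beta replicates 1 to 3, against 61, 91 and 72 counts in GFP replicates 1 to 3. That is 0, 0.0532 and 0.0578 CPM with ChREBP-beta against 3.19, 5.03 and 4.01 CPM with GFP, so that the transcript was low with GFP and close to undetected with ChREBP-beta. The level with GFP was 111 times that with ChREBP-beta (GFP over ChREBP-beta, from 2 counts in all with ChREBP-beta and 224 with GFP; exact 95% counting interval 30.3 to 920, which covers counting error only). The edgeR adjusted p was 7.94e-11, and 0.0904% of tested genes had a lower fitted log2 fold change. Pdlim3 passed the filter on low counts only through the GFP libraries, the group where it is high. Its p-value and its rank among tested genes depend on that choice, and the counts themselves are the plainer record.

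Pdlim4 (ENSMUSG00000020388.12; chromosome 11, 54054928 to 54069014, minus strand, GRCm38), or RIL, is a protein of actin stress fibres. Its level was 29.3, 27.6 and 30.4 CPM with ChREBP-beta against 47.7, 45.5 and 48.4 CPM with GFP, a log2 fold change of -0.70 (SE 0.060; edgeR adjusted p = 3.60e-10). Pdlim1 (ENSMUSG00000055044.12; chromosome 19, 40221173 to 40271842, minus strand, GRCm38), or CLP36, ties kinases and palladin to alpha-actinin on stress fibres. Its level was 23.2, 23.4 and 24.2 CPM with ChREBP-beta against 33.0, 34.8 and 32.5 CPM with GFP, a log2 fold change of -0.50 (SE 0.066; edgeR adjusted p = 4.52e-07). Both genes showed gaps between the groups wider than the range within either. Pdlim2 (ENSMUSG00000022090.10; chromosome 14, 70164218 to 70177681, minus strand, GRCm38), known in mouse immune cells for the breakdown of Stat4 and of the NF-kappaB subunit p65, was close to level, at 72.4, 72.8 and 73.9 CPM with ChREBP-beta against 78.4, 80.5 and 78.1 CPM with GFP. Its log2 fold change was -0.11 (SE 0.041; edgeR adjusted p = 0.0208). That call was lost in 5 of 16 alternatives, among them DESeq2 (adjusted p = 0.0508) and the fits without ChREBP-beta replicate 1 (0.0705), ChREBP-beta replicate 2 (0.0598) or GFP replicate 2 (0.0953).

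**Figure D3:**
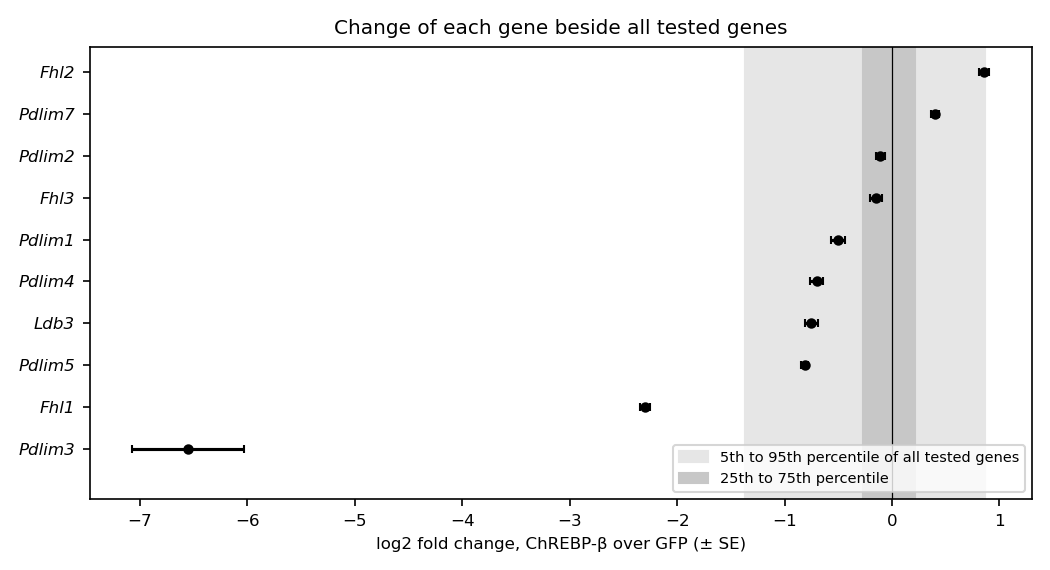
Fitted log2 fold change of each gene, ChREBP-beta over GFP, with its SE (bars), beside the spread of all tested genes (grey bands). Pdlim3 (-6.55, from 2 counts with ChREBP-beta) and Fhl1 (-2.30) lie below the 5th percentile of -1.37, Fhl2 (0.86) lies just under the 95th percentile of 0.87, and Pdlim2 and Fhl3 lie within the middle band.

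The order of the 10 genes by RPKM differed between the groups. With ChREBP-beta, Fhl2 led at 46.9 ± 0.684 RPKM, followed by Fhl3 at 22.8 ± 1.06, Pdlim5 at 21.8 ± 0.883 and Pdlim7 at 21.3 ± 0.843 RPKM (SD, n = 3), and the ranges of these last 3 genes over libraries overlapped in turn. Pdlim2 (16.3 RPKM), Pdlim4 (11.4 RPKM) and Fhl1 (7.97 RPKM) came next without overlap, then Ldb3 (5.03 RPKM) and Pdlim1 (4.49 RPKM), which overlapped, and last Pdlim3 (0.00719 RPKM). With GFP, Fhl1 at 39.3 ± 1.70 RPKM and Pdlim5 at 38.1 ± 0.434 RPKM led with overlapping ranges, followed by Fhl2 (25.8 RPKM) and Fhl3 (25.2 RPKM), which also overlapped. Pdlim4 (18.4 RPKM) overlapped Pdlim2 (17.6 RPKM), and Pdlim7 (16.1 RPKM), Ldb3 (8.45 RPKM), Pdlim1 (6.36 RPKM) and Pdlim3 (0.792 RPKM) followed without overlap. Merged exons include all annotated isoforms, and with the length of the longest transcript instead Pdlim5 led with GFP at 67.5 RPKM and Fhl1 came next at 52.7 RPKM, while with ChREBP-beta Fhl2 still led at 56.9 RPKM, ahead of Pdlim5 at 38.5 RPKM. The order below them changed as well with that length: Fhl3 stood at 23.0 RPKM with ChREBP-beta, below Pdlim7 (28.9 RPKM) and Pdlim2 (27.7 RPKM), while with GFP Pdlim4 (34.5 RPKM) stood above Fhl2 (31.3 RPKM), and Pdlim2 (30.0 RPKM) above Fhl3 (25.5 RPKM).

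Within the Pdlim and Ldb3 family, Pdlim5 held 27.1% ± 0.933 of the summed RPKM with ChREBP-beta and 36.0% ± 0.314 with GFP (SD, n = 3). Pdlim7 held 26.5% ± 0.721 with ChREBP-beta and 15.2% ± 0.170 with GFP (SD, n = 3). The share of Pdlim2, whose own level hardly moved, was 20.3% ± 0.460 with ChREBP-beta and 16.6% ± 0.307 with GFP (SD, n = 3). The exact permutation p was 0.1 for each of these 3 shares. Summed over the 7 genes, the level was 453 ± 9.09 CPM with ChREBP-beta and 632 ± 2.15 CPM with GFP (SD, n = 3; log2 difference -0.48, exact permutation p = 0.1), a sum in which Pdlim5 weighs most.

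Other LIM genes and the partners of these proteins were followed through 5 lists, each read beside the 29.5% higher and 29.3% lower of all tested genes. Of 35 tested genes for other LIM proteins of the cytoskeleton, 19 were lower, 9 higher and 7 not called, with a median log2 fold change of -0.15. Csrp2, a smooth-muscle LIM protein gene, fell to 40.1 CPM with ChREBP-beta, against 76.6 CPM with GFP (edgeR adjusted p = 3.79e-14). Tes, which encodes the focal adhesion protein testin, fell to 82.5 CPM with ChREBP-beta, against 134 CPM with GFP (adjusted p = 8.27e-14). Lpp, which encodes an adhesion protein, fell to 391 CPM with ChREBP-beta, against 489 CPM with GFP, and Lima1, which encodes an actin-bundling protein, fell 1.10-fold (edgeR adjusted p = 1.46e-08 and 6.40e-04). The focal adhesion gene Zyx (zyxin) rose 1.19-fold, and Lasp1, which encodes an actin-binding LIM and SH3 protein, rose 1.47-fold (edgeR adjusted p = 5.82e-08 and 7.48e-14). The family's remaining members Fhl4 and Fhl5 are in this list. Fhl4 had 6, 2 and 10 counts in ChREBP-beta replicates 1 to 3, against 25, 13 and 27 in GFP replicates 1 to 3 (edgeR adjusted p = 0.00344). Like Pdlim3, Fhl4 passed the filter on low counts only through the GFP libraries, where it is higher, so its p-value depends on that choice. Fhl5 had no count in any library.

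In the list of Lmo, LIM homeobox and Ldb genes, 8 of 18 were tested, 5 lower, 2 higher and 1 not called, with a median of -0.89. Lmo1, which encodes a nuclear LIM-only protein, rose to 24.1 CPM with ChREBP-beta, against 3.60 CPM with GFP (edgeR adjusted p = 3.79e-16). Lmo4 fell 1.98-fold, and the LIM homeobox genes Lhx9 and Lhx6 fell 3.15-fold and 3.34-fold. Ldb1, which encodes the protein that bridges LIM transcription factors and despite its name is no relative of Ldb3, rose 1.14-fold (edgeR adjusted p = 0.00323).

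The genes of known partners moved both ways. Among partners of Pdlim and Ldb3 proteins, 7 of 16 tested genes were higher, 4 lower and 5 not called (median 0.05). Actn3, which encodes the alpha-actinin of fast muscle fibres, fell to 1.77 CPM with ChREBP-beta, against 16.8 CPM with GFP, and Palld, which encodes palladin, fell to 136 CPM with ChREBP-beta, against 258 CPM with GFP (edgeR adjusted p = 7.37e-16 and 5.28e-17). The non-muscle alpha-actinin genes Actn1 and Actn4 (the second with counts that were not whole in 2 libraries) rose 1.11-fold and 1.19-fold. Flna stood at 2604 CPM with ChREBP-beta and 2552 CPM with GFP, and Tpm4 at 1233 CPM with ChREBP-beta and 1212 CPM with GFP (edgeR adjusted p = 0.393 and 0.395). The genes of the muscle Z-disc partners alpha-actinin 2, myotilin, myopalladin, the 3 myozenins and telethonin had at most 10 counts over a group and were not tested.

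Among partners of Fhl proteins, 8 of 17 tested genes were higher, 6 lower and 3 not called (median 0.08). The count of higher genes was 4 without ChREBP-beta replicate 3, 5 without ChREBP-beta replicate 2 and 4 when libraries were scaled by size alone. Myod1, whose product binds Fhl3, fell to 1.23 CPM with ChREBP-beta, against 30.8 CPM with GFP (edgeR adjusted p = 1.93e-19). Id3, which encodes an inhibitor of myogenic factors, fell to 76.8 CPM with ChREBP-beta, against 165 CPM with GFP, and Nfatc1, whose product binds Fhl1, rose to 118 CPM with ChREBP-beta, against 46.2 CPM with GFP (edgeR adjusted p = 2.04e-18 and 1.24e-18). Itgb1, the gene of integrin beta-1, rose 1.36-fold, and Ctnnb1, the gene of beta-catenin, stood at 465 CPM with ChREBP-beta and 480 CPM with GFP (edgeR adjusted p = 0.148).

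In the list of actin and cytoskeletal target genes of Srf, which also holds Srf and its cofactors Mrtfa and Mrtfb, 13 of 28 tested genes were lower, 7 higher and 8 not called (median -0.05). Srf itself rose 1.15-fold, while Mrtfa and Mrtfb (the second with counts that were not whole in 2 libraries) fell 1.21-fold and 1.24-fold. Ccn2, a matricellular protein gene, rose 4.88-fold, and Tln1, the talin gene, rose 1.42-fold (edgeR adjusted p = 6.54e-25 and 3.58e-14). Filip1l, a filamin-associated gene, fell 1.66-fold and the cytoplasmic actin gene Actg1 1.18-fold. Actb, with counts that were not whole in 4 libraries, stood at 3292 CPM with ChREBP-beta and 3218 CPM with GFP (edgeR adjusted p = 0.261). The lists overlap, with Flna, Tpm1, Tpm2 and Tpm4 in both the Pdlim partner and the Srf list, Srf in both the Fhl partner and the Srf list, and Zyx and Csrp1 in both the cytoskeletal LIM and the Srf list.

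**Figure D4:**
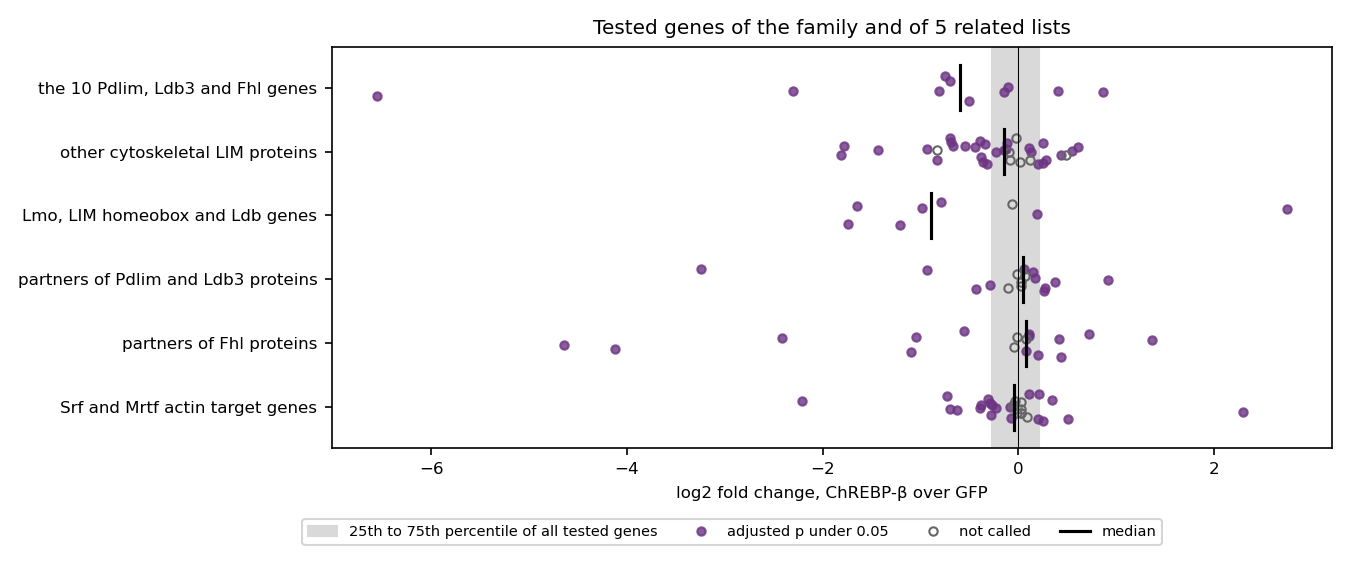
Fitted log2 fold change, ChREBP-beta over GFP, of each tested gene (points; filled where the adjusted p is under 0.05), with the median of each list (black line) and the 25th to 75th percentile of all tested genes (grey band). The median of the 10 genes is -0.60. That of the Lmo, LIM homeobox and Ldb genes is lower, at -0.89, and that of the other cytoskeletal LIM genes is -0.15. The medians of the partner lists and the Srf list lie between -0.05 and 0.08.

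The genes nearest to Fhl2 and Pdlim3 in pattern were sought over the 6 libraries by the root mean square difference of log2 CPM after centring each gene. Nearest to Fhl2, the member with the largest rise, were Hmox1 (heme oxygenase 1; 0.018), the pericyte proteoglycan gene Cspg4 (0.019) and the zinc finger gene Zbtb38 (0.020), with log2 fold changes of 0.89, 0.87 and 0.84. Nearest to Pdlim3, the member with the largest fall, were the enkephalin precursor gene Penk (0.311), the matricellular gene Ccn3 (0.323) and Mchr1, a hormone receptor gene (0.410). Their levels were 0.808, 1.42 and 0.0177 CPM with ChREBP-beta, against 34.8, 92.8 and 2.80 CPM with GFP. With 2 groups, this likeness largely follows the size of the group difference in log2 CPM, taken here with a prior count of 1. For Pdlim3, with 2 counts in all with ChREBP-beta, that difference depends on the prior count. The fitted log2 fold changes of Penk, Ccn3 and Mchr1 were -5.42, -6.03 and -6.80, beside -6.55 for Pdlim3. Ranked by closeness to Pdlim3 in fitted fold change, these genes would stand in another order.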

How the data were processed

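The authors deposited 1 table of estimated counts by gene symbol, not normalized, in which 7.74% of values are not whole (tolerance 1e-06), as when reads are split between genes. GRCg6a, a chicken assembly, is the build in the submitters' processing notes, although the symbols are mouse. Those notes list TopHat2 2.0.0, Bowtie2 2.0.0.5 and fastp. The counting tool, mouse build, annotation and strand setting were not given in the sources used here; reads of overlapping or antisense genes therefore cannot be separated. Libraries were grouped by their titles. Rows of the 24 repeated symbols were summed and counts rounded.

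All 12166 genes that passed filterByExpr (edgeR 4.0.16, R 4.3.3; minimum count 10, minimum total 15) were tested with TMM scaling, glmQLFit and glmQLFTest, two-sided, Benjamini-Hochberg adjusted over all of them and called under 0.05. Standard errors are the log2 fold change over the root of F. CPM values are TMM-scaled. The procedure was tested on simulated data. Shares and sums were compared by exact permutation tests. Loci and exon lengths are from GENCODE M21 (GRCm38), which may not be the authors' build. Libraries of a group differed by more than sampling noise (chi-square per degree of freedom 2.15 to 3.93) and were kept as separate samples. At 17600238 counts or more per library, levels under 1 CPM rest on few reads. Counting intervals cover counting error only.

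Named genes are the 10 members, Mlxipl, and in each list the 3 called genes with the smallest adjusted p and the 3 with the highest mean CPM, plus the 3 genes nearest in pattern to the members with the largest rise and fall. Other named genes (Actn1, Actn4, Srf, Mrtfa, Mrtfb, Fhl4 and Fhl5, and untested partners) were picked after their values were seen. Some genes that the rule picks are not reported here. The members and lists were chosen with earlier results of these data known. Alternatives were limma-voom (limma 3.58.1) and DESeq2 1.42.0, scaling by RLE, upper quartile, library size or without Mlxipl and the 10 most abundant genes, other filters (none, or mean CPM 5 or more), a replicate block, leaving out each library, a 2-fold minimum and, for levels per length, the longest transcript, counts not rounded and only members that pass the filter. A fit of only the libraries with over 1 CPM of Alb was added after seeing the data.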

Additional observations from a re-analysis of the deposited data

How the results depend on the processing

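The directions of all 10 members held under every alternative in which they were tested. Pdlim1, Pdlim3, Pdlim4, Pdlim5, Pdlim7, Ldb3, Fhl1 and Fhl2 were called in each of these, the 2-fold minimum aside, and Pdlim3 could not be tested where a mean CPM of 5 or more was asked. The Fhl1 log2 fold change ran from -2.37 to -2.26 and that of Fhl2 from 0.82 to 0.88. Pdlim2 and Fhl3 lost their calls with DESeq2 (log2 fold change -0.11, adjusted p = 0.0508, and -0.14, adjusted p = 0.0692) and among libraries with over 1 CPM of Alb (-0.10 and -0.16). Fhl3 also lost it with no filter (-0.14, adjusted p = 0.0515). Over the fits without 1 library, Pdlim2 ran from -0.12 to -0.09 and Fhl3 from -0.18 to -0.12.

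With a 2-fold minimum, 494 genes were called higher and 903 lower; of the members 0 were higher and 2 lower, so that Pdlim1 (-0.50), Pdlim2 (-0.11), Pdlim4 (-0.70), Pdlim5 (-0.81), Pdlim7 (0.40), Ldb3 (-0.75), Fhl2 (0.86) and Fhl3 (-0.15) were not called. Under it, other cytoskeletal LIM genes counted 0 higher and 3 lower, Lmo and LIM homeobox genes 1 and 3, Pdlim partners 0 and 1, Fhl partners 1 and 5, and Srf targets 1 and 1. Higher Fhl partners, 8 in the main test, numbered 5 with upper-quartile scaling, 4 with library-size scaling, 4 to 7 without 1 library and 5 among libraries with over 1 CPM of Alb; in that last setting higher Pdlim partners numbered 4 and Lmo and LIM homeobox genes 1 higher and 3 lower. Where genes needed a mean CPM of 5 or more, 3 of the latter were lower, since fewer genes were tested.

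With the longest transcript as length, the share difference, ChREBP-beta minus GFP, was 4.26 points for Pdlim2, 9.73 for Pdlim7, -1.11 for Ldb3, -36.3 for Fhl1, 34.2 for Fhl2 and 2.12 for Fhl3, against 3.67, 11.3, -1.71, -33.3, 31.9 and 1.40 with merged exons. The log2 differences of the summed CPM were -0.53 for the Pdlim and Ldb3 genes and -0.64 for the Fhl genes with library-size scaling. The causes of these changes with scaling, library or length were not tested.

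The labels do not state whether replicate numbers pair the libraries, and a check showed no sign of it. Deviations of libraries with the same number correlated at -0.02, 0 and -0.04, and no library correlated best with its own number. Deviations were centred within each group of 3 libraries, so the check could miss a weak shared batch. With the replicate number as a block, 3474 genes were higher and 3428 lower, and all 10 members kept their calls (2 higher, 8 lower).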

Other observations

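Further partners of Fhl proteins, chosen here after their values were seen, fell or rose with ChREBP-beta. Ttn, which encodes the sarcomere spring titin that binds Fhl1 and Fhl2, stood at 0.590 CPM on average with ChREBP-beta and 10.4 CPM with GFP (edgeR adjusted p = 5.70e-14). Ttn passed the filter on low counts only through the GFP libraries, where it is higher, and its p-value depends on that choice. Itga7, the gene of the laminin-binding integrin of muscle, fell 2.07-fold, while Runx2, the gene of an osteoblast transcription factor, rose to 152 ± 7.11 CPM with ChREBP-beta, against 92.3 ± 2.41 CPM with GFP (SD, n = 3; edgeR adjusted p = 6.42e-14).

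Among other cytoskeletal LIM genes, the planar polarity genes Prickle1, Prickle2 and Prickle3 all fell, by 1.78-fold, 2.70-fold and 1.59-fold (edgeR adjusted p = 1.35e-04, 6.48e-12 and 0.00264). Prickle3 had counts that were not whole in 5 libraries. Limk1, which encodes a kinase of the actin-severing protein cofilin, rose to 48.6 ± 0.778 CPM with ChREBP-beta, against 31.8 ± 1.64 CPM with GFP (SD, n = 3; edgeR adjusted p = 2.10e-09). These genes were also chosen after their values were seen.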
